A study of Mus musculus with 6 samples.

Results

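Heat shock proteins and chaperonins were followed in 1G11 cells, a mouse microvascular endothelial line, that were either mock-modified (1G11-mock) or overexpressed superoxide dismutase-3 (1G11-SOD3), an extracellular enzyme that removes superoxide. Both lines, of strain C57BL/6NCrLBR, had spent 6 h in conditioned medium of the mouse mammary cancer line N202.1A, and no array of cells without that medium was analysed here. RNA of 3 biological replicates per line was hybridized to 6 single-color Agilent arrays. Members were all probes whose annotation named 1 of 35 chosen genes, of which 34 had a probe; these gave 48 of the 55681 probes on the array, each printed at a single spot. Expression of *Hspa1b*, a near-identical copy of *Hspa1a*, was not analysed here. Although the set was named for the cytosol, 4 members (*Hspa9*, *Hspd1*, *Hspe1* and *Trap1*) code for mitochondrial chaperones and are described as such.

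Chaperones bind unfolded or newly made proteins and use cycles of ATP binding and hydrolysis, or plain binding in the case of small heat shock proteins, to help them fold or to keep them soluble. Hsp70 is loaded by J-domain proteins and reset by exchange factors of the Hsp110 and BAG families, Hsp90 acts on kinases and receptors late in their folding, and the ring-shaped chaperonins enclose their clients. In stressed cells heat shock factor 1, the product of *Hsf1*, binds heat shock elements in the promoters of many of these genes and raises their transcription, whereas *Hspa8*, *Hsp90ab1* and the TRiC/CCT subunits are made by most cells at all times.

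The heat shock element is built from GAA and its complement TTC in alternation. Genes chosen as heat shock proteins are known to carry it often, so its share among them is a description and no independent result. In the promoter table from RefSeq (build GRCm38.p6, 250 bases before to 50 after each start site), 28 of the 35 members were found. The pair GAANNTTC, which reads the same on both strands, was in 12 of these 28 members (42.9%) and in 9.04% of the 27025 genes in the table. Both *Hspa1a* and *Hspa1b* are among the 12, with the same bases around the match. A run of 3 units (GAANNTTCNNGAA or, on the other strand, TTCNNGAANNTTC, each of which contains the pair) was in 4 members, namely *Hsph1*, *Dnajb6*, *Hspd1* and *Hspe1*, and in 0.662% of all genes. The windows below are shown because they hold the match (in capitals) for the stress-inducible *Hspa1a*, for the 4 members with the longer run, and for *Hspb8*. Each is given 5′ to 3′ on the strand of its gene.

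Hspa1a, chr17:34972242-34972271, minus strand: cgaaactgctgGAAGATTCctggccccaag

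Hsph1, chr5:149636280-149636309, minus strand: tgctgcagaTTCTGGAAAGTTCtcctcagt

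Dnajb6, chr5:29735843-29735872, plus strand: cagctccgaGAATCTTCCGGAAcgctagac

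Hspd1, chr1:55088056-55088085, minus strand: cgcggggccTTCCGGAAGGTTCtagaacgg

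Hspe1, chr1:55088050-55088079, plus strand: cacggtccgTTCTAGAACCTTCcggaaggc

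Hspb8, chr5:116422844-116422873, minus strand: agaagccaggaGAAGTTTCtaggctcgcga

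*Hspd1* and *Hspe1* are transcribed away from each other, and the 2 windows printed for them overlap on chromosome 1, so that they show one stretch of DNA on its 2 strands. Such a match is a description of letters in a window and not of a bound factor.

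Values depended on where a probe was printed. Spots in rows 129 to 256 and columns 55 to 109, called the middle here, read dim on the 1G11-mock arrays, and 42 member probes (32 genes) lay outside it and 6 probes (6 genes) in it. Among other probes that were well above background on at least 3 arrays, the median log2 fold change (1G11-SOD3 minus 1G11-mock, so that positive values are higher in 1G11-SOD3) was 2.89 nearest the array centre and -0.40 nearest the corners. On the slide, row 1 held every 1G11-SOD3 array and row 2 every 1G11-mock array, and slide row and cell line cannot be told apart. Differences are therefore given also after a position adjustment, in which a smooth surface over rows and columns was taken from each array. After it, copies of 1 probe gave closer differences between the lines (196 probes printed many times, median SD 0.135, down from 0.302). It moved the median of all probes outside the middle from -0.06 to 0.10, and that of all probes in the middle from 0.18 to -0.68. A probe was called at more than 2-fold and a Benjamini-Hochberg adjusted p under 0.05 by limma, over 55961 features.

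Of the series as a whole, between 34.2% and 43.8% of spots per array were well above background, and none was saturated. The *Sod3* probe, itself in the middle, rose by 4.27 ± 0.70 on the log2 scale (SE, adjusted p = 0.00766; 2.65 and adjusted p = 0.0163 after the position adjustment); with an array left out the difference as normalized was 3.18 to 5.05, and its adjusted p passed 0.05 without 1G11-SOD3 replicate 3 alone, at 0.0506. Of 11 endothelial markers with a probe outside the middle, *Kdr*, *Eng*, *Cd34* and *Vwf* were well above background on all 6 arrays, whereas *Cdh5*, *Tek*, *Tie1*, *Erg* and *Emcn* were so on none; *Cd34* was called higher (1.11) and *Vwf* lower (-1.65). Of 7 mesenchymal markers 4 were called higher in 1G11-SOD3 (*Col1a1* by 3.1), with a list mean of 9.47 to 9.75 on the 1G11-mock arrays and 10.5 to 11.3 on the 1G11-SOD3 arrays. Of 7 epithelial and 5 leukocyte markers none was called by limma, and none had an unadjusted p under 0.05 (1 epithelial marker did after the position adjustment). The part of the marker shifts in the results that follow was not tested. In RNA from a whole culture, fewer cells of a kind and less RNA per cell cannot be told apart.

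Few heat shock protein and chaperonin genes differed between the lines beyond the spread of the arrays. Outside the middle 2 of 42 probes were called higher in 1G11-SOD3, those of *Trap1* and *Hspd1*, and 1 was called lower, that of *Dnajb4*. These are 4.76% and 2.38% of the probes, where 0.664% of all 49526 probes outside the middle were called higher and 1.19% lower, or 1.75% and 3.06% of the 18556 that were well above background on at least 3 arrays. With each gene on its brightest probe, the same 2 and 1 of 32 genes compare with 0.841% and 1.4% of 33875 genes. After the position adjustment limma called none of the 42 in either direction (5 had an unadjusted p under 0.05, against 7 before it), with 1.09% of all probes outside the middle called higher and 0.832% lower. With cyclic loess in place of quantile normalization, 1 was called higher and 1 lower.

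Differences were small for most of the others. The log2 fold change was at most 0.5 in size for 35 of the 42 probes outside the middle, above 0 for 23 and below 0 for 19. The 95% interval lay within 2-fold in both directions for 27 of them, and for 33 after the position adjustment, so that for the rest a change of 2-fold was within the error of these arrays. On the brightest probe of each gene the median was 0.16 over 32 genes, against -0.06 over all genes, and 0.12 against 0.09 after the position adjustment. Most members were bright, with 40 of the 42 probes well above background on all 6 arrays. Over the 12446 genes whose brightest probe was so, the median was -0.16, and 0.02 after the position adjustment.

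**Figure D1:**
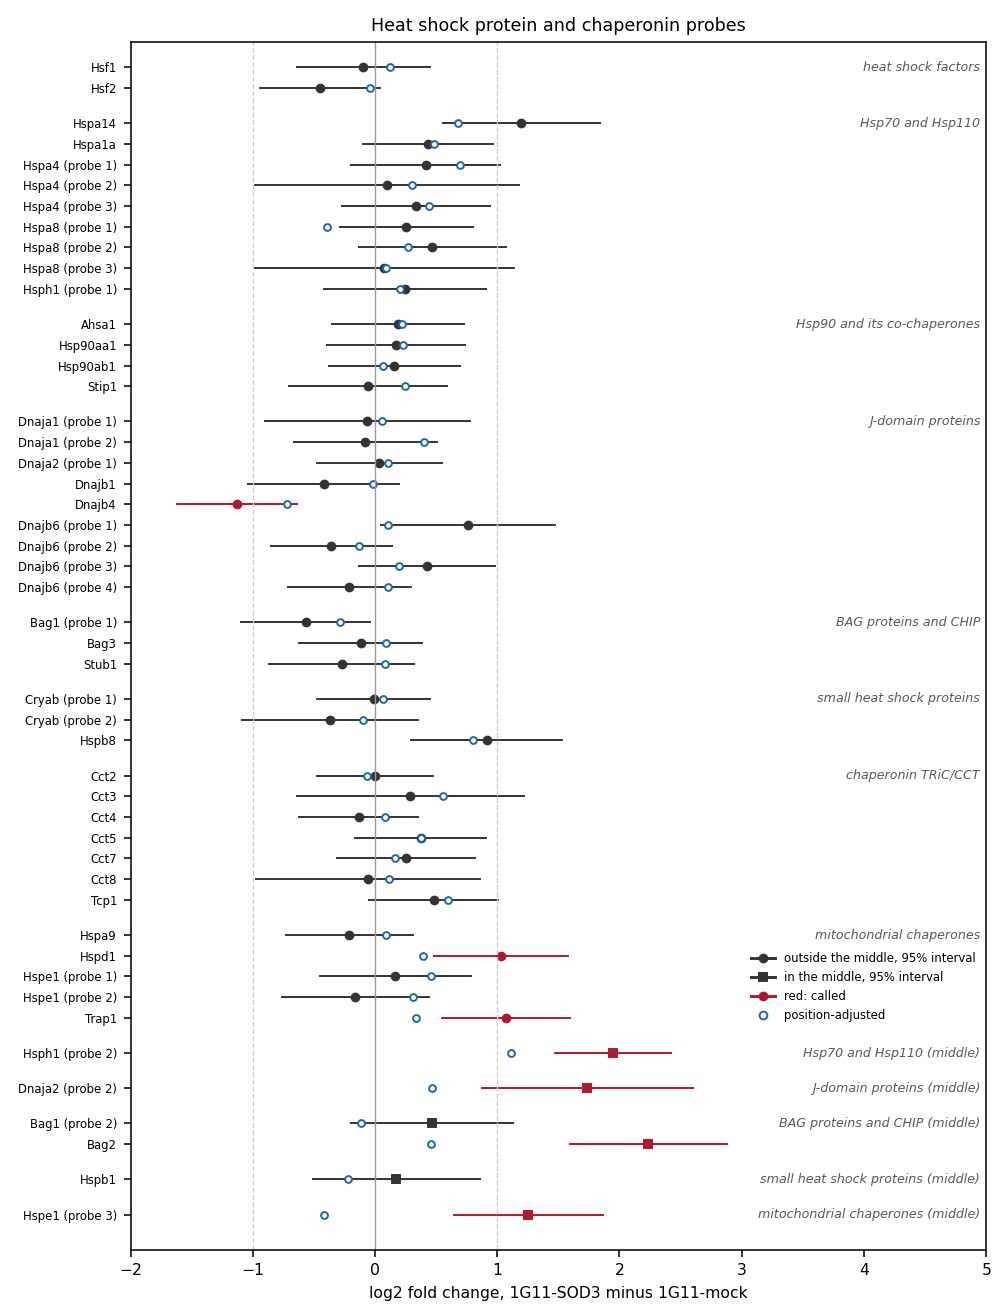
Log2 fold change (1G11-SOD3 minus 1G11-mock, 3 arrays each) of each member probe by role, with its 95% interval from limma; circles are probes outside the middle, squares probes in it, red those that were called, open blue circles the position-adjusted values, and dashed lines 2-fold. Of 42 probes outside the middle 3 are red, and 4 of the 6 in the middle are red, with open circles that lie nearer to 0.

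The 2 heat shock factors did not pass the test. *Hsf1*, the main regulator of the stress response, had a log2 fold change of -0.10 (95% interval -0.64 to 0.45, adjusted p = 0.906), and 0.12 after the position adjustment. *Hsf2*, a related factor active in development, read 10.08, 9.78 and 9.65 (log2 normalized intensity) on the 1G11-mock arrays and 9.33, 9.50 and 9.32 on the 1G11-SOD3 arrays. The lines did not overlap for *Hsf2*, by a small margin, but the difference of -0.45 did not pass (adjusted p = 0.393) and was -0.04 after the position adjustment.

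Among Hsp70 genes the widest difference was in *Hspa14*, a ribosome-associated Hsp70 that acts on nascent chains. Its probe read 13.53, 12.66 and 12.69 on the 1G11-mock arrays and 14.43, 13.79 and 14.26 on the 1G11-SOD3 arrays. All 1G11-SOD3 arrays lay above all 1G11-mock arrays, with 1G11-mock replicate 1 standing near them. The difference of 1.20 ± 0.29 (SE) missed the threshold at an adjusted p of 0.0513 and was 0.68 (adjusted p = 0.137) after the position adjustment; without 1G11-mock replicate 1 it was 1.48 and was called (adjusted p = 0.0162). Neighbouring spots, within 12 rows and 6 columns, had a median of 0.53.

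*Hspa8*, the constitutive Hsp70, had 3 probes outside the middle, with differences of 0.26, 0.47 and 0.07 (-0.39, 0.27 and 0.09 after the position adjustment). The first, just below the middle of the array, read 17.34 and 17.45 on 1G11-mock replicates 1 and 2 and 17.70, 17.71 and 17.54 on the 1G11-SOD3 arrays; 1G11-mock replicate 3 was left out as an outlier spot. The lines did not overlap on those 5 arrays, yet the difference was within its error (adjusted p = 0.7) and turned sign with the position adjustment; neighbouring spots had a median of 0.82. The stress-inducible *Hspa1a* was well above background on none of the 1G11-mock arrays and on all 3 of 1G11-SOD3. It read 7.47, 7.36 and 8.0 on the former and 8.05, 8.18 and 7.91 on the latter, so that the lines overlapped. The difference did not pass the test (adjusted p = 0.458), and the probe, in column 53, lay just outside the middle. The lowest signal well above background was 8.0 to 8.17 on the 1G11-mock arrays and 7.56 to 7.86 on the 1G11-SOD3 arrays. These counts therefore did not compare the lines at one threshold, although 7.47 and 7.36 lay below both ranges. The lowest signal that was well above background on each 1G11-mock array had a mean over the 3 arrays that the mean of *Hspa1a* in 1G11-SOD3 did not exceed, so no fold is given, and whether *Hspa1b* RNA also binds the probe was not tested. *Hspa4*, an exchange factor of the Hsp110 family, had 3 probes with differences of 0.42, 0.10 and 0.33, none past the test, and 0.70, 0.30 and 0.44 after the position adjustment (lowest adjusted p = 0.108). *Hsph1*, the Hsp105 exchange factor, had 0.24 (adjusted p = 0.776) on its probe outside the middle, and 0.20 after the position adjustment.

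The Hsp90 group did not pass the test in any member. The inducible *Hsp90aa1* had a difference of 0.17, the constitutive *Hsp90ab1* 0.16, *Stip1*, which bridges Hsp70 and Hsp90, -0.06, and *Ahsa1*, which stimulates the Hsp90 ATPase, 0.19. The 95% intervals of these 4 ran from -0.70 to 0.74 in all, within 2-fold. After the position adjustment the differences were 0.23, 0.07, 0.24 and 0.22, in the same order, so that *Stip1* turned sign. *Hsp90ab1* lacked 1G11-mock replicate 3 for the same reason as *Hspa8*, and its remaining 1G11-mock arrays (17.65 and 17.73) lay just below those of 1G11-SOD3 (17.85, 17.82 and 17.87).

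Of the J-domain proteins *Dnajb4*, a cochaperone that stimulates the Hsp70 ATPase, fell. Its probe, on chromosome 3 from 151849464 to 151849523 on the minus strand (array annotation, whose build is not given in the sources used here), read 10.59, 10.42 and 10.50 on the 1G11-mock arrays. On the 1G11-SOD3 arrays it read 9.21, 9.28 and 9.63. The 2 lines were separated by more than the range within either. The difference was -1.13 ± 0.22 (SE, adjusted p = 0.0198, a 2.19-fold lower level), and neighbouring spots had a median of -0.41. After the position adjustment it was -0.72 (95% interval -1.25 to -0.19, adjusted p = 0.117) and no longer called. The call was lost also without 1G11-mock replicate 2 (-1.17, adjusted p = 0.0611), 1G11-SOD3 replicate 1 (-1.05, 0.0959) or 1G11-SOD3 replicate 2 (-1.08, 0.0838).

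*Dnajb6*, which keeps aggregation-prone proteins soluble, had 4 probes that did not go one way, with differences of 0.76, -0.36, 0.42 and -0.21, none past the test (0.10, -0.13, 0.20 and 0.10 after the position adjustment). The pair with positive values shared 51 of their 60 bases, of which the first 30 are shown because they give one sequence read at 2 places on the array.

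Dnajb6, shared by 2 probes: caaggaggaatgtattttagtgctactgac

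After the position adjustment the range over the 4 probes of *Dnajb6* was 0.33, against 1.12 before it. Of the 6 genes with several probes outside the middle, 3 had a smaller range after the adjustment and 3 a larger one. *Dnaja1*, a major Hsp70 partner in the cytosol, had -0.06 on its bright probe (0.05 after the position adjustment), where 1G11-SOD3 replicate 1 (13.63) stood below the other arrays (14.45 to 15.42), and its second probe was well above background on no 1G11-mock array. *Dnaja2*, a related cochaperone, had 0.04 outside the middle, and 0.11 after the position adjustment. The stress-inducible *Dnajb1* had -0.42 (adjusted p = 0.555), where neighbouring spots had a median of -0.43, and -0.01 after the position adjustment.

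No exchange factor of the BAG family passed the test outside the middle. *Bag1*, which links Hsp70 to the proteasome, read 14.86, 14.59 and 14.69 on the 1G11-mock arrays and 13.78, 14.25 and 14.40 on the 1G11-SOD3 arrays on its probe in a corner of the array. The lines did not overlap, but the difference of -0.57 had an adjusted p of 0.302 and was -0.29 after the position adjustment. *Bag3*, the stress-inducible member that serves selective autophagy, had -0.12, and *Stub1*, which codes for the ubiquitin ligase CHIP, had -0.27. Their neighbouring spots had medians of -0.24 and -0.33, and after the position adjustment both turned sign (0.09 and 0.08).

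Small heat shock proteins hold unfolded clients without ATP. *Hspb8*, the partner of Bag3, read 10.46, 10.89 and 11.30 on the 1G11-mock arrays and 12.13, 11.84 and 11.42 on the 1G11-SOD3 arrays. The lines did not overlap, by a margin smaller than the range within either. Its difference of 0.91 ± 0.28 (SE) did not pass (adjusted p = 0.127), and it moved little with the position adjustment (0.80, 95% interval 0.26 to 1.34, adjusted p = 0.0938); neighbouring spots had a median of 0.08. *Cryab*, the small heat shock protein αB-crystallin, had -0.01 on its bright probe, with all 6 arrays between 17.98 and 18.22, and -0.37 on a second probe that varied more (0.07 and -0.10 after the position adjustment).

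The cytosolic chaperonin TRiC/CCT folds actin and tubulin, and its subunits assemble into rings. None of the 7 measured subunits passed the test, and their differences ran from -0.13 in *Cct4* to 0.48 in *Tcp1* (adjusted p = 0.398). *Cct2* differed least (-0.00, 95% interval -0.47 to 0.47), and *Cct5* and *Cct7* had 0.38 and 0.25. After the position adjustment the 7 ran from -0.07 in *Cct2* to 0.60 in *Tcp1* (adjusted p = 0.22); *Cct4* (0.08) and *Cct8* (0.11) turned sign, and *Cct3* had 0.56, *Cct5* 0.38 and *Cct7* 0.16. *Cct3* (0.29) and *Cct8* (-0.06) varied widely within each line. *Cct3* read 11.78, 12.83 and 13.52 on the 1G11-mock arrays and 12.41, 12.96 and 13.63 on the 1G11-SOD3 arrays. Replicate 1 was thus the lowest in both lines. The pooled SD within a line was 0.755 for *Cct3* and 0.745 for *Cct8*, where the median over 15257 probes that were well above background on all arrays was 0.324. It was larger still for the second *Hspa4* probe (0.917) and the third *Hspa8* probe (0.896) named above. On both, 1G11-SOD3 replicate 1 stood lowest (10.05 and 12.64), and the 95% intervals were wide (-0.99 to 1.18 and -0.99 to 1.14). Across the 40 member probes with 6 values outside the middle, replicate 1 was the lowest in both lines for 5 (12.5%), near the 14.7% of all such detected probes.

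Of the mitochondrial chaperones *Trap1* and *Hspd1* were called higher. *Trap1*, the mitochondrial Hsp90, read 10.92, 10.71 and 10.28 on the 1G11-mock arrays and 11.64, 11.83 and 11.66 on the 1G11-SOD3 arrays. Its difference was 1.07 ± 0.24 (SE, adjusted p = 0.0342). *Hspd1*, the Hsp60 subunit of the mitochondrial chaperonin, read 13.97, 13.97 and 13.29 on the former and 14.73, 14.87 and 14.73 on the latter, with a difference of 1.03 ± 0.25 (SE, adjusted p = 0.0497). In both genes the lines did not overlap, the 1G11-SOD3 arrays lay close together, and 1G11-mock replicate 3 was the lowest. Both probes (*Trap1* within chromosome 16 from 4044692 to 4045495, *Hspd1* on chromosome 1 from 55134697 to 55134756, minus strand, array annotation) lay just above the middle on the array, and neighbouring spots had medians of 0.72 and 0.64. After the position adjustment the differences were 0.34 (adjusted p = 0.374) and 0.39 (adjusted p = 0.301), and both lay within the middle when it was widened by 24 rows and 12 columns. *Trap1* kept its call without 1G11-mock replicate 1 (1.22, adjusted p = 0.0304) and lost it without any other array (0.89 to 1.11, adjusted p = 0.0893 to 0.135), and *Hspd1* lost it without any 1 of the 6 arrays (0.80 to 1.15, adjusted p = 0.0556 to 0.172). *Hspe1*, the Hsp10 cap of the same chaperonin, had 0.17 and -0.16 on probes outside the middle that shared 45 bases, and *Hspa9*, the mitochondrial Hsp70, had -0.21. These 3 probes had 0.46, 0.31 and 0.09 after the position adjustment.

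**Figure D2:**
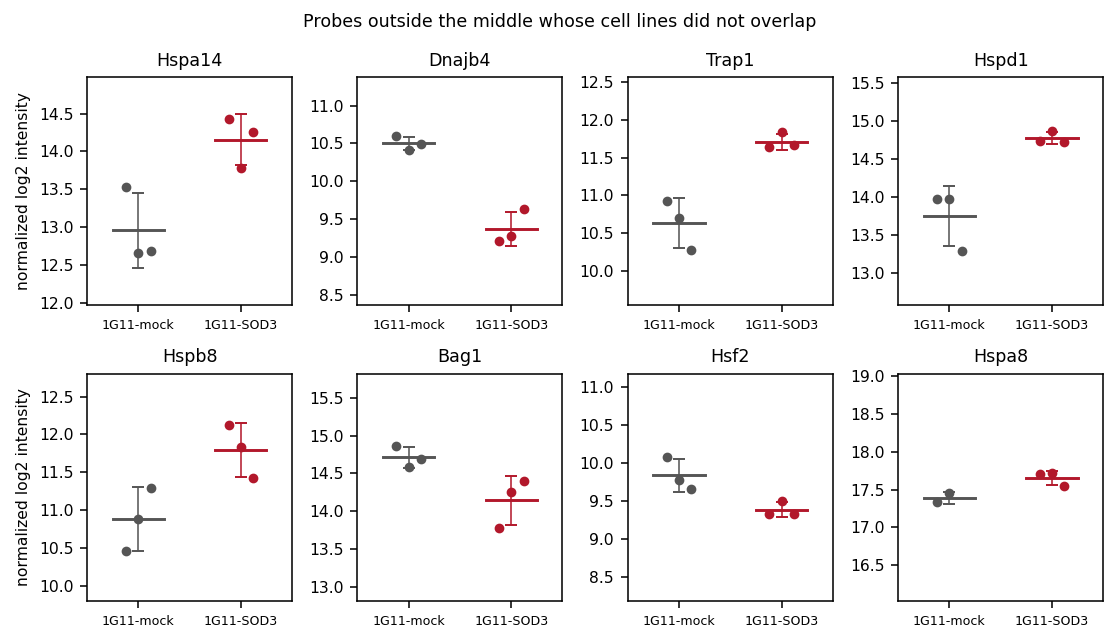
Normalized log2 intensity on each array (points), with the mean (bar) and SD of each cell line, for the 8 probes outside the middle with the largest differences among those whose lines did not overlap; all panels span 3 log2 units. *Dnajb4*, *Bag1* and *Hsf2* lie lower in 1G11-SOD3 and the others higher, and *Hspa8* has 2 points for 1G11-mock.

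Across the whole set outside the middle, the lines did not overlap for 9 probes. The 6 with 1G11-SOD3 higher (14.3% of 42) were those of *Hspa14*, *Hspa8*, *Hsp90ab1*, *Hspb8*, *Trap1* and *Hspd1*, of which those of *Hspa8* and *Hsp90ab1* rested on 5 arrays; over all probes outside the middle the share was 8.27%. The 3 with 1G11-SOD3 lower (7.14%) were those of *Hsf2*, *Dnajb4* and *Bag1*, against 11.4% of all probes.

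Members with and without the pair GAANNTTC in their window had near-equal medians. The other order of the units, TTCNNGAA, was not searched on its own, so genes without the pair may still hold an element. Of the genes with the pair GAANNTTC and a probe outside the middle, 10 in number, the median log2 fold change was 0.20, with a range of -0.27 to 1.03 and 1 call (*Hspd1*). Over the 15 genes whose window was searched and lacked it the median was 0.19, with a range of -1.13 to 1.20 and calls of *Trap1* and *Dnajb4*. After the position adjustment the medians were 0.15 and 0.22. Of the genes whose windows are printed above, *Hspd1* was thus the only one called on a probe outside the middle.

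In the middle of the array all 6 member probes had higher values in 1G11-SOD3, and 4 of them were called, those of *Hsph1*, *Bag2*, *Dnaja2* and *Hspe1*. The background there was high: 11.9% of all 6435 probes in the middle were called higher and 0.0622% lower, and 32.5% of those well above background on at least 3 arrays were called higher. The median over the 6 was 1.5, against 0.17 after the position adjustment, after which 1 was called, with 1.88% of all probes in the middle called higher.

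The probe that kept its call was that of *Hsph1* (chromosome 5 from 150420110 to 150420169, minus strand, array annotation). It read 9.27, 9.35 and 9.21 on the 1G11-mock arrays and 11.34, 11.03 and 11.29 on the 1G11-SOD3 arrays. The lines were far apart and each was tight. The difference was 1.95 ± 0.22 (SE, adjusted p = 0.000864) as normalized and 1.11 (95% interval 0.62 to 1.61, adjusted p = 0.0221) after the position adjustment, and neighbouring spots had a median of 0.75. With the position adjustment the call held without 1G11-mock replicate 3 (1.22, adjusted p = 0.019) and was lost without any other array (1.01 to 1.20, adjusted p = 0.051 to 0.0895). The other *Hsph1* probe, outside the middle, read 12.13, 12.33 and 13.32 on the 1G11-mock arrays and 12.83, 12.95 and 12.74 on the 1G11-SOD3 arrays. There the lines overlapped, and the position-adjusted difference of 0.20 was 0.91 below that of the probe in the middle, so that the 2 probes of this gene did not give one answer.

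*Bag2*, an inhibitor of the ligase CHIP with a probe in the middle alone, read 8.92, 9.17 and 8.04 on the 1G11-mock arrays, of which 2 were well above background, and 11.02, 10.83 and 10.99 on the 1G11-SOD3 arrays. Its difference of 2.23 ± 0.29 (SE, adjusted p = 0.00232) was the widest of all members, but neighbouring spots had a median of 1.76, and after the position adjustment 0.46 remained (adjusted p = 0.278). Other probes at a like distance from the array centre, well above background on at least 3 arrays, then still had a median of 0.18. *Hspb1*, the small heat shock protein Hsp25, had its only probe at the edge of the middle, with a difference of 0.17 (adjusted p = 0.854), or -0.22 after the position adjustment.

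*Dnaja2*, *Hspe1* and *Bag1* were also read both in and outside the middle. *Dnaja2* had 1.74 in the middle (adjusted p = 0.0371) and 0.04 outside, a gap of 1.70, which was 0.36 after the position adjustment. Its call was lost without 1G11-mock replicate 2 or 3 or 1G11-SOD3 replicate 1 or 3, with adjusted p of 0.0645 to 0.158 and differences of 1.24 to 1.94. *Hspe1* had 1.26 in the middle (adjusted p = 0.0335), on a probe that 1 of the 3 1G11-mock arrays read well above background. Its sign turned after the position adjustment (-0.42, adjusted p = 0.604), after which the median of all probes in the middle was -0.68. The gaps of this probe to the 2 outside probes of *Hspe1*, 1.09 and 1.42, then also turned, to -0.87 and -0.73, and did not close. Its call as normalized held only without 1G11-mock replicate 1 (1.51, adjusted p = 0.0139; without each of the others 1.11 to 1.43, adjusted p = 0.0588 to 0.135).

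Of the 60 bases of each *Bag1* probe 38 were the same. The first 30 of these are shown because they were printed in a corner and again in the middle of every array.

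Bag1, shared by 2 probes: cgtcggttctcaatgaaaaagtcctgtctt

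On the probe in the middle *Bag1* read 15.69, 15.33 and 14.53 on the 1G11-mock arrays and 15.82, 15.36 and 15.77 on the 1G11-SOD3 arrays. The lines overlapped there and the difference was 0.46, where the corner probe had -0.57. The gap of 1.03 between the 2 probes was 0.17 after the position adjustment, when both had values below 0 (-0.12 and -0.29).

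**Figure D3:**
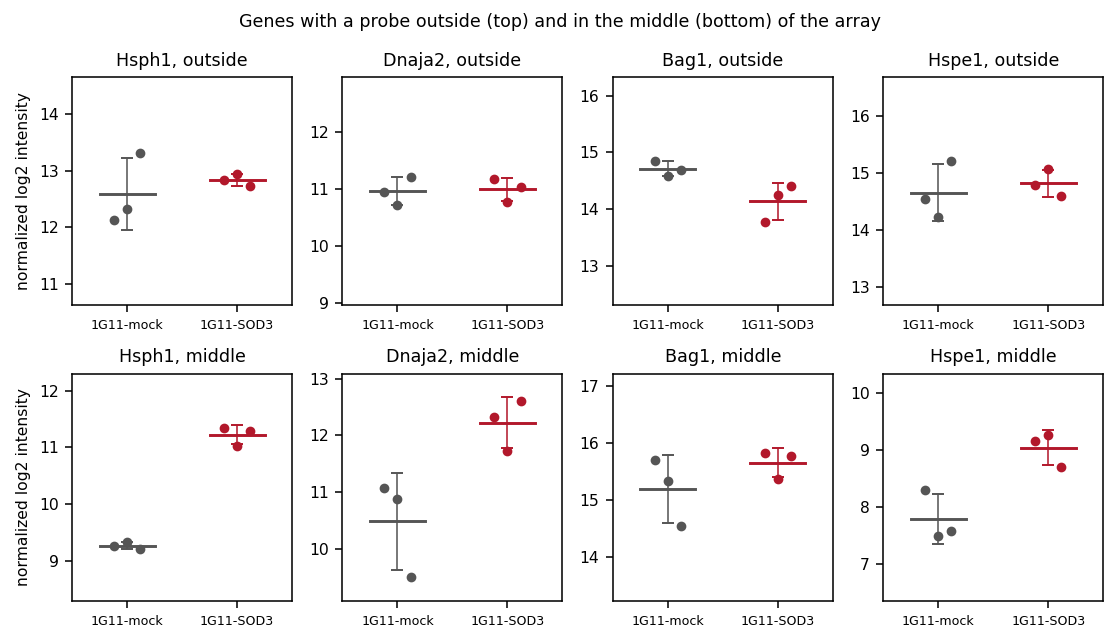
Normalized log2 intensity on each array (points), with the mean (bar) and SD of each cell line, for 4 genes with a probe outside the middle (top) and in it (bottom); all panels span 4 log2 units, and for *Hspe1* the brighter outside probe is shown. The 1G11-SOD3 arrays lie above the 1G11-mock arrays in the bottom panels of *Hsph1*, *Dnaja2* and *Hspe1* and in no top panel.

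**Figure D4:**
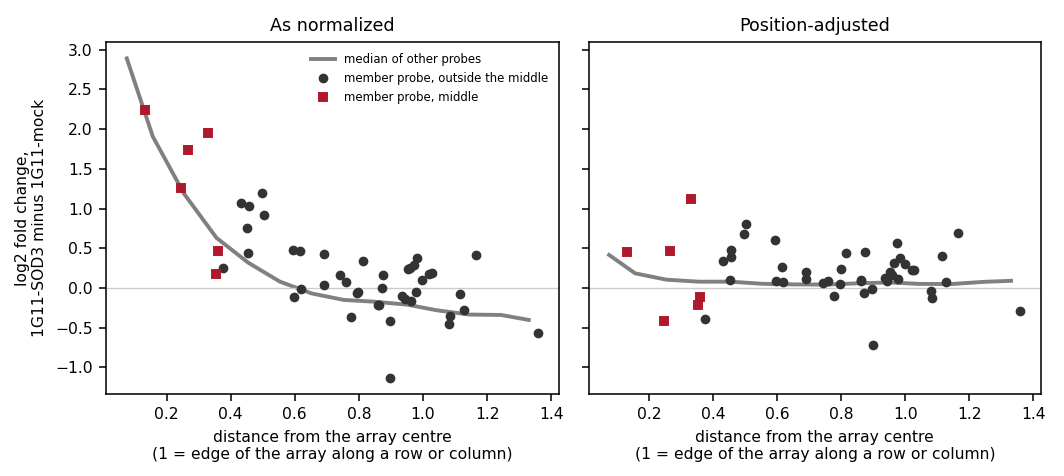
Log2 fold change (1G11-SOD3 minus 1G11-mock) of each member probe against its distance from the array centre, where 1 is the edge along a row or column, as normalized (left) and position-adjusted (right); the gray line is the median of other probes that were well above background on at least 3 arrays. The line runs from 2.89 to -0.40 on the left and from 0.42 to 0.09 on the right. There *Hsph1* (1.11) is the highest member and *Dnajb4* (-0.72) the lowest.

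Few of the other chaperones measured on the same arrays were called. Of 54 further heat shock and chaperone genes, 50 had a probe outside the middle, and 1 was called. This was *Hspa13*, a microsomal Hsp70 relative, which read 11.09, 10.68 and 11.46 on the 1G11-mock arrays and 9.57, 10.09 and 10.02 on the 1G11-SOD3 arrays. All its 1G11-SOD3 arrays lay lower, with a difference of -1.18 ± 0.27 (SE, adjusted p = 0.0362), neighbouring spots had a median of -0.71, and after the position adjustment -0.51 remained (adjusted p = 0.28). The median over the 50 genes was -0.09, and 0.06 after the position adjustment. Of 16 endoplasmic reticulum chaperones 15 had a probe outside the middle, and limma called none (5 had an unadjusted p under 0.05, and 6 after the position adjustment). Their median was 0.34, and 0.40 after the position adjustment, against 0.09 over all genes. Of these, *Hspa5*, the reticulum's Hsp70, had 0.27 (adjusted p = 0.729), and *Sdf2l1*, a cofactor of it, 1.27 (adjusted p = 0.0572).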

How the data were processed

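Per the labels, 3 biological replicates of each cell line were hybridized. The authors deposited, for each array, the Agilent Feature Extraction 10.7.3.1 output with the intensity of each spot and of its local background, not normalized between arrays, and 1 table of background-corrected, normalized log2 values, which served as an alternative. From the mean spot intensity and the median local background, values were corrected by normexp (offset of 50), control spots and outlier spots were left out, and log2 values were brought to one distribution by quantile normalization (limma 3.58.1, R 4.3.3). A probe printed in and outside the middle counted as 2 features. Differences were tested in limma (empirical Bayes variances, Benjamini-Hochberg adjustment over 55961 features), and calls needed an adjusted p under 0.05 and over 2-fold. With 3 arrays per line, their number limits the precision. Surfaces for the position adjustment were thin-plate splines fitted per array with mgcv 1.9.3, on spots that were well above background on at least 3 arrays. Tables used pandas 2.3.3 and numpy 2.4.6 in Python 3.11.15, and figures matplotlib 3.10.9. The procedure was tested on simulated data.

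Members, lists and alternatives were chosen with earlier results of these data known. Every member gene with a probe outside the middle is named with its brightest probe there. Values per array are given for probes outside the middle that were called or had an adjusted p under 0.05. They are given also for the 8 such probes with the largest difference among those whose lines did not overlap. Genes whose probes disagreed are named with each probe, and of the other chaperone lists the called genes are named. Other per-array values, and *Hspa5* and *Sdf2l1*, were picked after the values were seen. The alternatives were the deposited table, cyclic loess or 75th percentile scaling, the processed signal at its 75th percentile, the median in place of the mean pixel value, an offset of 16, uncorrected background, outlier spots or control spots kept, dim probes left out, a block by replicate number, a variance trend, copies averaged over the array, the middle left out or widened, the position adjustment, a gene's probes averaged, and each array left out. The position adjustment with an array left out or with the block, and the medians of neighbouring spots, were added after seeing the data.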

Additional observations from a re-analysis of the deposited data

How the results depend on the processing

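The counts of called members moved with the processing. Outside the middle, 2 probes were called higher and 1 lower as reported. None was called higher with an offset of 16, the processed signal, a variance trend, the wider middle, or the position adjustment with or without the replicate block, and 1 with median pixel intensity, cyclic loess, outlier spots kept, the deposited table or copies averaged over the array. With 75th percentile scaling, the middle left out, dim probes left out or the replicate block, 3 were called higher. None was called lower without background correction, with the processed signal, with the middle left out, or with the position adjustment with or without the block. In the middle, where 4 were called higher, 2 were without background correction, with an offset of 16 or with the processed signal, and 1 with the position adjustment with or without the block. The count there was 3 with 75th percentile scaling and 6 with the wider middle, which takes in more probes. Leaving out 1 array gave 0 to 2 called higher and 0 to 1 called lower outside the middle, and 2 to 4 higher in it; with the position adjustment it gave 0 and 0 outside, and 0 to 1 in the middle. Of the other chaperone genes, 0 were called with an offset of 16, cyclic loess, the middle left out, a variance trend, or the position adjustment with or without the block, 2 with 75th percentile scaling, the replicate block or dim probes left out, and 0 to 1 with an array left out, also with the position adjustment. Of the endoplasmic reticulum chaperones, 3 were called with 75th percentile scaling, 2 with the block and 1 with dim probes left out.

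The median of the member genes outside the middle, 0.16, was 0.34 with the processed signal, 0.017 with the wider middle and 0.016 to 0.25 with an array left out (0.09 to 0.22 with the position adjustment). The median of all genes was -0.43 with the processed signal and -0.32 with 75th percentile scaling, so that the members lay 0.77 and 0.53 above it, against 0.22 as reported, 0.09 with the wider middle and 0.02 with the position adjustment. The median of the 6 probes in the middle, 1.5, was 1.10 with the processed signal, 0.90 with the wider middle, 0.17 with the position adjustment with or without the block, 1.20 to 1.73 with an array left out, and 0.11 to 0.23 with both.

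The *Hspe1* probe in the middle (1.26; 1.11 to 1.51 with an array left out) turned to -0.42 with the position adjustment, also with the block, and to between -0.79 and -0.26 when an array was left out as well, except without 1G11-mock replicate 3 (0.10). Of the 41 uncalled probes 27 changed sign in at least 1 of 29 alternatives, and none of those was called there. *Hspa14* was called with 75th percentile scaling, the middle left out, dim probes left out, and the replicate block (adjusted p = 0.0162). Deviations of same-numbered arrays correlated weakly, at 0.167, 0.225 and 0.0872, and those of differently numbered arrays at -0.14 to -0.03. Each array thus correlated best with its own number. In both lines the replicate number was also the slide column, so that number and slide column cannot be told apart. Whether the number marks a pairing was not tested, and the fit as reported did not use it. With the number as a block, 3 probes outside the middle were called higher and 1 lower. The causes were not tested. Signal over background limits *Hspa1a*, the dim *Dnaja1* probe, *Bag2* and the middle *Hspe1* probe, which were not well above background on all 1G11-mock arrays.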
